A study of Rattus norvegicus with 10 samples.

Results

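The genes described here are those of the mRNA export receptor and the TREX complex (transcription and export). They are Nxf1 and Nxt1, which together form the receptor, Ddx39b and Alyref, the helicase and the adaptor of TREX, and Thoc1, Thoc2, Thoc3, Thoc5, Thoc6 and Thoc7, the subunits of its THO core. They were taken from the count table by symbol, and all 10 were found among its 17168 gene rows and passed the filter on low counts. The 10 were picked when the differences between these same groups were already known, so their differences are given as a description. No p-value is given for them, and counts of members past a threshold only describe the list. Poly(A) RNA of the left hippocampus was sequenced in stranded libraries from 10 male TgF-344AD rats, 1 library per rat. All 10 carried the Alzheimer transgenes (genotype Tg-AD), in a Fischer rat line that expresses mutant human amyloid precursor protein and presenilin from a prion promoter, and tissue was taken at 11 months of age. The 5 untreated rats ate rodent chow, and the 5 ibudilast rats ate chow that held ibudilast for 6 months, starting at 5 months of age; the drug blocks phosphodiesterases that break down cyclic nucleotides. Per the labels, only the ibudilast samples were kept in RNAlater-ICE, so treatment and storage cannot be told apart, and no group without the transgenes was compared here.

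A finished messenger RNA leaves the nucleus as a particle coated with export proteins. The THO core binds the RNA while it is made and spliced and brings the helicase Ddx39b (UAP56), which loads adaptors such as Alyref. The adaptors hand the RNA to the Nxf1-Nxt1 dimer, which passes through the nuclear pore, and helicase work on the cytoplasmic side then releases it. In neurons this pathway feeds the messages that are later carried into dendrites and axons, and inherited faults in THO subunits are known to impair brain development.

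Within this one pathway the 10 genes differed unevenly between the groups. Thoc1, Nxf1 and Ddx39b were 2.62, 2.25 and 1.95 times as high in the ibudilast rats, while Thoc7 and Thoc6 were 1.30 and 1.24 times as high. Thoc2, Thoc3, Thoc5, Nxt1 and Alyref lay between 0.886 and 1.24 times the untreated level. The first 5 genes were past the threshold of the fit over all genes (edgeR's quasi-likelihood test, adjusted p under 0.05), all 5 of them higher and 0 lower, where 47.1% of the 12355 genes tested were past it, 24.3% higher. That count depended on the scaling: it was 8 with upper-quartile factors, which added Nxt1, Thoc2 and Thoc5, and 7 with library size alone, which added Nxt1 and Thoc2. Over all genes 3384 and 3410 were higher in those fits, against 3004 here. At an unadjusted p, 7 members were higher and 1, Alyref, was lower, and Alyref was also the 1 member called lower by DESeq2. The same 5 members were those whose groups did not overlap, against 33.4% of all genes and 18.0% with the ibudilast rats above. These shares are given for scale, and nothing is read from them about genes chosen on this contrast. The median log2 fold change of the members was 0.31, beside 0.02 over all genes.

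**Figure D1:**
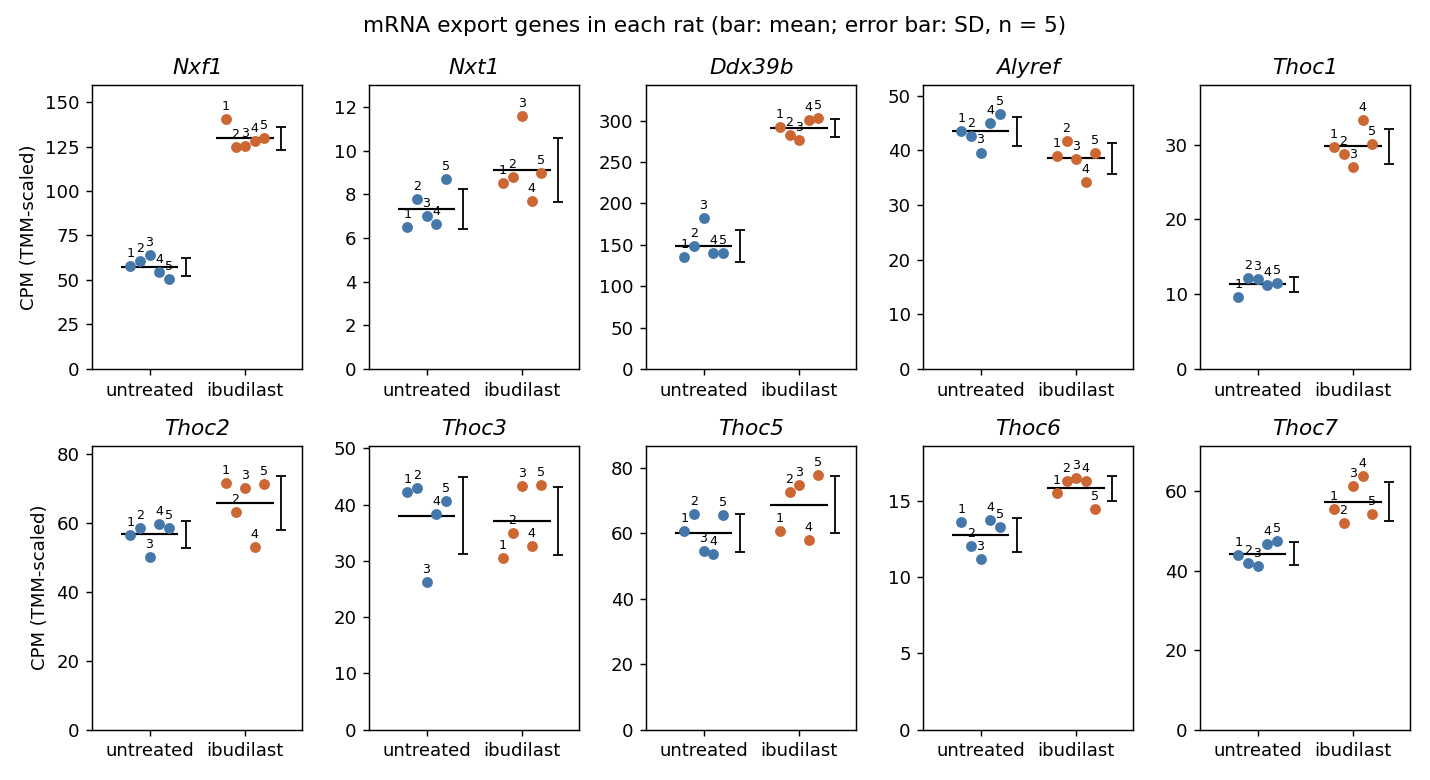
The y axis gives CPM (read counts relative to the TMM-scaled library size) for each export gene in each of the 10 rats, with replicate numbers beside the points, the mean as a bar and the SD as an error bar. Nxf1, Ddx39b, Thoc1, Thoc6 and Thoc7 show no overlap between the groups, and the other 5 genes do.

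Promoter sequences of 9 of the 10 members, all but Thoc2, were matched by symbol in a RefSeq table of build GRCr8. It holds 250 bases before and 50 bases after an annotated start. Statements below on promoters of members cover these 9 genes. The 150 bases before that start are shown for the 3 members with the largest differences and for Thoc3 and Alyref, whose log2 fold changes were below 0 with TMM scaling, so that the groups of genes can be read side by side. Capitals mark matches, on either strand, to the motifs searched.
Nxf1, chr1:215084413-215084562, plus strand: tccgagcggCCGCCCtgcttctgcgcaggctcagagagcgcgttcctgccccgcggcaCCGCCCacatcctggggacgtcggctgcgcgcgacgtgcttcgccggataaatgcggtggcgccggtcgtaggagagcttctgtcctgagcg
Ddx39b, chr20:3589652-3589801, minus strand: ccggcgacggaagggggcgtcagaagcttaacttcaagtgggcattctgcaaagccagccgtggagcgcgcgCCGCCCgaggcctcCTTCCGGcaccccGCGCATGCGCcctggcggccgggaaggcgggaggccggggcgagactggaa
Thoc1, chr18:1256510-1256659, plus strand: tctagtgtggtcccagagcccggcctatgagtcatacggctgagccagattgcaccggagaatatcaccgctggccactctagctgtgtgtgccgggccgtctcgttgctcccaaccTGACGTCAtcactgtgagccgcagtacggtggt
Thoc3, chr17:10148131-10148280, plus strand: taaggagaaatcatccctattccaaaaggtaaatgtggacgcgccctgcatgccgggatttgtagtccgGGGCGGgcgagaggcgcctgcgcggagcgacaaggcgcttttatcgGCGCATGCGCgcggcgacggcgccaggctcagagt
Alyref, chr10:106373396-106373545, minus strand: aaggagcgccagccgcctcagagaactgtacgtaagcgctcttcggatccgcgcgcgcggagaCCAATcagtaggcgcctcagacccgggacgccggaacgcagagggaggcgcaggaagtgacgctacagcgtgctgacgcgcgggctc
The first motif searched was TGACGTCA (CRE), the element bound by CREB, a factor that cAMP signalling activates. The others were CCGGAAG for the ETS factors, the 10-base palindrome known for the factor NRF1, and GGGCGG, the GC box. The box of general promoters spelled CCAAT was searched too, as was the core promoter element written TATAAA, and the E-box of helix-loop-helix factors, CACGTG. TGACGTCA was found in Thoc1, with its first base 33 bases before the start, and in no other member that had an entry. It is held by 1.83% of all 33469 promoters and by 3.17% of the 9680 promoters of tested genes. The NRF1 motif was found in Ddx39b and in Thoc3, 51 and 35 bases before the start, and is in 1.84% of the promoters of tested genes. In Ddx39b it lies beside an ETS match, 64 bases before the start. ETS matches were also found in Nxt1, Thoc5 and Thoc3, and 16.0% of the promoters of tested genes hold the motif. Thoc3 thus held both motifs too, with its ETS match after the start. A GC box was found in 8 members, a common feature shared by 61.3% of the promoters of tested genes, and 0 members held the E-box. Outside the stretch shown, Alyref alone of the members held TATAAA, 184 bases before the start, a motif in 6.94% of the promoters of tested genes. The members' 10 promoter entries, with an extra entry for Thoc7, had a median of 29.5 CpG dinucleotides and a GC content of 65.2%. For the tested genes these were 20 and 60.7%. These matches describe the letters only. The sequences are of another build than the counts (rn6).

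Nxf1 is the receptor that carries most messenger RNA through the pore. It was at 57.7, 60.5, 63.7, 54.7 and 50.7 CPM in untreated replicates 1 to 5 and at 141, 124, 125, 128 and 129.7 CPM in ibudilast replicates 1 to 5. The groups lay far apart, with the lowest ibudilast rat at nearly 2 times the highest untreated rat. The means were 57.5 ± 5.06 and 129.6 ± 6.51 CPM (SD, n = 5 each), a log2 fold change of 1.17 ± 0.07 (SE). Of all genes tested, 5.71% had a larger absolute log2 fold change. Nxf1 is known to make a second RNA that keeps an intron bearing a constitutive transport element, and the single row per gene does not tell the 2 forms apart.

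Nxt1 is the small partner without which Nxf1 binds the pore poorly. It was at 6.49, 7.79, 6.99, 6.66 and 8.69 CPM in untreated rats and at 8.52, 8.81, 11.6, 7.68 and 8.97 CPM in ibudilast rats, from 104 to 166 counts per library. The groups overlapped, with untreated replicate 5 above 2 of the ibudilast rats, and ibudilast replicate 3 was the highest. The means were 7.33 ± 0.913 and 9.11 ± 1.47 CPM, a log2 fold change of 0.31 ± 0.14. The ratio of Nxf1 to Nxt1 CPM within a rat was 7.96 ± 1.31 in untreated and 14.5 ± 2.36 in ibudilast rats, with 9.12 the highest untreated and 10.8 the lowest ibudilast value. These ratios compare rats, not the amounts of the genes, since CPM is not corrected for length. Like the other ratios between members given below, they restate the differences of the genes in them. Nxt2, a close relative of Nxt1 that is not among the 10, fell from 7.29 ± 0.598 to 4.90 ± 0.867 CPM (edgeR adjusted p = 0.00714). Summed, Nxt1 and Nxt2 were at 14.6 ± 0.962 and 14.0 ± 1.66 CPM in the respective groups, with overlap. All counts of both genes were whole numbers, so no library shows reads divided between them.

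Ddx39b, the ATP-driven helicase that links the THO core to the adaptors and also acts in splicing, was among the members with the largest differences. It was at 135, 148, 182, 139.6 and 139 CPM in untreated rats and at 292, 283, 277, 300.3 and 303 CPM in ibudilast rats. Untreated replicate 3 was above the rest of its group but still well below every ibudilast rat. The means were 149 ± 19.2 and 291 ± 11.3 CPM, a log2 fold change of 0.97 ± 0.09. Its paralogue Ddx39a, which can stand in for it in TREX, rose from 10.1 ± 0.910 to 17.4 ± 0.475 CPM (log2 fold change 0.79 ± 0.08, edgeR adjusted p = 5.44e-05). The ratio of Ddx39b to Ddx39a within a rat was 14.8 ± 1.95 and 16.7 ± 0.443, and the groups overlapped in it. Counts of both were whole in all 10 libraries, and the fold change of their sum was 0.96 ± 0.09 on the log2 scale. Small nucleolar RNA genes lie within Ddx39b in the GRCr8 annotation, and any of their reads in its row would not be told apart.

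Alyref, the adaptor that Ddx39b loads and that hands RNA to Nxf1, was at 43.5, 42.6, 39.6, 45.0 and 46.6 CPM in untreated rats. In ibudilast rats it was at 38.9, 41.7, 38.4, 34.1 and 39.4 CPM. All 5 ibudilast rats lay below the untreated mean, but untreated replicate 3 fell within their range. The means were 43.5 ± 2.64 and 38.5 ± 2.76 CPM, a log2 fold change of −0.17 ± 0.07. The log2 fold changes of helicase and adaptor had opposite signs, and the ratio of Ddx39b to Alyref was 3.46 ± 0.667 in untreated and 7.60 ± 0.756 in ibudilast rats, without overlap. Its highest untreated value, 4.60, was that of replicate 3.

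**Figure D2:**
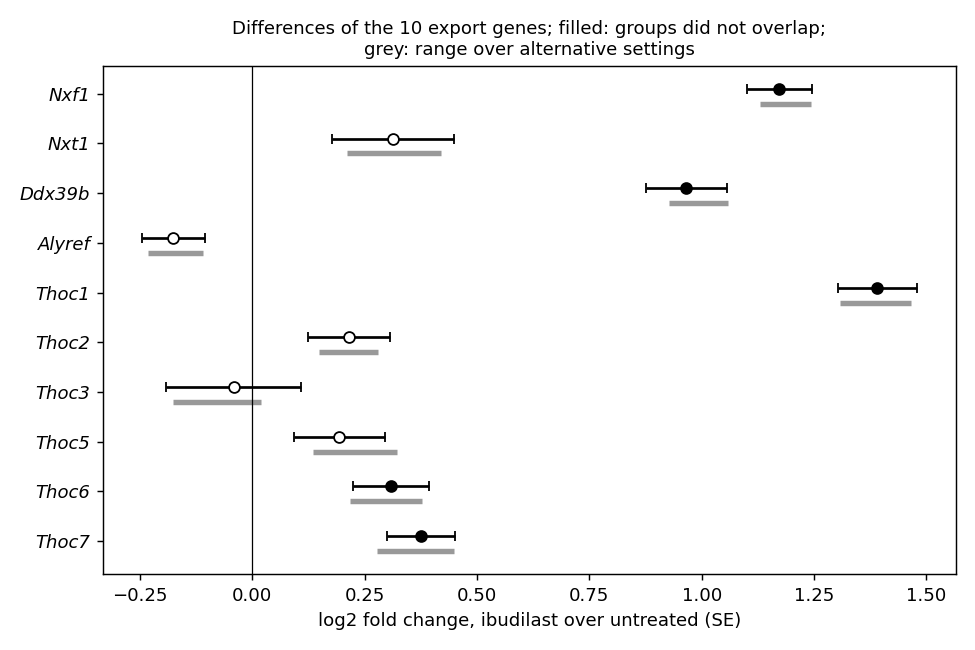
Log2 fold change of each export gene (ibudilast over untreated, x axis) with its SE as an error bar, filled where the groups did not overlap, and in grey its range over 21 alternative settings. Nxf1, Ddx39b and Thoc1 are at 0.97 to 1.39, apart from the other 7 genes, which are at −0.17 to 0.38.

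Thoc1, the THO subunit first described as a protein bound by the retinoblastoma tumour suppressor, had the largest difference of the 10. It was at 9.68, 12.2, 12.05, 11.3 and 11.5 CPM in untreated rats and at 29.7, 28.7, 27.0, 33.4 and 30.0 CPM in ibudilast rats. Every ibudilast rat had more than 2 times the CPM of any untreated rat. The means were 11.4 ± 1.01 and 29.8 ± 2.34 CPM, a log2 fold change of 1.39 ± 0.09, and 3.08% of all genes had a larger one in size. A long noncoding RNA gene is annotated on the opposite strand within the span of Thoc1 in GRCr8, and whether the counting used strand is not given in the sources used here.

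Thoc2, the large scaffold on which the other THO subunits assemble, did not follow Thoc1. It was at 56.6, 58.4, 50.2, 59.8 and 58.6 CPM in untreated rats and at 71.6, 63.2, 70.1, 53.1 and 71.4 CPM in ibudilast rats. In 4 of the 5 ibudilast rats it was above every untreated rat, while ibudilast replicate 4 was below most of them. The log2 fold change was 0.22 ± 0.09. Without ibudilast replicate 4 it was 0.26. Pseudogenes are annotated within the span of Thoc2 in GRCr8, and its counts were whole in all 10 libraries. That does not show whether their reads entered its row, since the annotation used for counting is not given. Within a rat the ratio of Thoc1 to Thoc2 was 0.201 ± 0.0258 in untreated and 0.461 ± 0.0969 in ibudilast rats, without overlap, and was highest, at 0.628, in ibudilast replicate 4.

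Thoc5 and Thoc7 form the coiled-coil arm of the core. Thoc5 was at 60.8, 65.9, 54.6, 53.8 and 65.5 CPM in untreated rats and at 60.9, 72.8, 74.7, 57.9 and 77.7 CPM in ibudilast rats, with overlap and a log2 fold change of 0.19 ± 0.10. Without the 4 libraries described further on it was 0.32. Thoc7 was at 43.9, 42.0, 41.1, 46.8 and 47.5 CPM in untreated rats and at 55.5, 52.0, 61.4, 63.8 and 54.4 CPM in ibudilast rats. All ibudilast rats were above all untreated rats, by a small margin, and the log2 fold change was 0.38 ± 0.08. The Thoc1 to Thoc7 ratio was 0.258 ± 0.0328 and 0.521 ± 0.0471, without overlap.

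Thoc3 and Thoc6 are the WD-repeat subunits. Thoc3 was at 42.2, 43.0, 26.2, 38.4 and 40.6 CPM in untreated rats and at 30.6, 35.0, 43.4, 32.7 and 43.4 CPM in ibudilast rats. The groups overlapped almost fully (38.1 ± 6.88 and 37.0 ± 6.03 CPM), and untreated replicate 3 was the lowest of the 10 rats. The log2 fold change was −0.04 ± 0.15. With 1 rat left out it ran from −0.17, without untreated replicate 3, to 0.02, without ibudilast replicate 1, and it was also 0.02 with library size alone. Thoc6, in which inherited loss is known to cause intellectual disability, was at 13.6, 12.003, 11.2, 13.7 and 13.3 CPM in untreated rats and at 15.5, 16.3, 16.5, 16.3 and 14.5 CPM in ibudilast rats. The groups did not overlap, and the log2 fold change was 0.31 ± 0.08. Without the 4 libraries described further on it was at 0.22.

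The values of Thoc6 are uncertain for a reason that the deposited counts show. Its expected counts were not whole in all 10 libraries. Hcfc1r1, a gene that overlaps Thoc6 on the opposite strand in GRCr8 and was looked up after the counts were seen, also had 10 counts that were not whole. In all 10 libraries the sum of the 2 was whole within 0.02, and of 2635 genes with any count that was not whole it was the 1 gene for which this held. The fractional parts of the 2 rows thus completed each other. How many reads the 2 rows shared was not measured. Hcfc1r1 was the larger row, with means of 106 ± 10.5 and 149.8 ± 10.7 CPM (log2 fold change 0.50 ± 0.08). Thoc7 had counts that were not whole in all 10 libraries too, and 0 single genes completed its sums. The protein-coding genes Atxn7 and C15h3orf49 overlap Thoc7 on the opposite strand in GRCr8, and neither was among the genes tested. With which rows Thoc7 shared reads was not found, so its values are uncertain as well. Nxf1, Nxt1, Thoc2, Thoc3, Thoc5, Alyref and Ddx39b had whole counts throughout, and Thoc1 had 1 that was not.

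**Figure D3:**
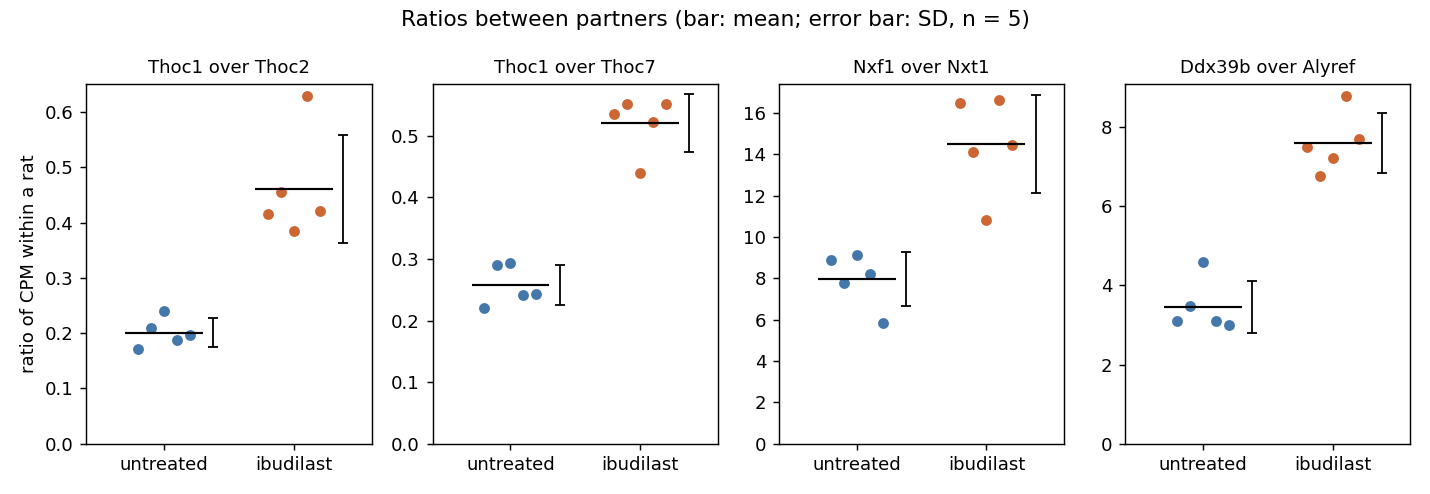
Ratio of CPM between partner genes within each rat (y axis), for 5 untreated and 5 ibudilast rats, with the mean as a bar and the SD as an error bar. In each of the 4 ratios all ibudilast rats are above all untreated rats, and ibudilast replicate 4 is the highest for Thoc1 over Thoc2 at 0.628. Each sets Thoc1, Nxf1 or Ddx39b over a member that differed less, so the ratios restate the differences of the members. The ratio of Nxf1 to Ddx39b, not shown, overlapped (0.350 to 0.427 in untreated and 0.426 to 0.482 in ibudilast rats).

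The spread between rats of one group was small for most members. It does not use the difference between the groups directly. A choice of genes on that difference can still favour a small spread, so it too is a description. The SD of log2 CPM over the 5 rats had a median of 0.130 over the members in the untreated and 0.118 in the ibudilast group. It was below the median of genes with a mean CPM within 2-fold for 8 members in the untreated and 7 in the ibudilast group. Ddx39b had an SD of 0.06 in the ibudilast group, and 4.84% of 1571 genes of like abundance had a smaller one. In the untreated group its SD was 0.17, and 52.3% of those genes had a smaller one. Thoc3 varied most, at 0.30 and 0.23, with 82.2% and 73.7% of like genes below it. Untreated replicate 3 was the lowest of its group for 5 members and the highest for 2, Nxf1 and Ddx39b, and ibudilast replicate 4 was the lowest of its group for 4 members.

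Profiles over the 10 libraries were compared by the root mean square difference of log2 CPM, each gene centred on its own mean. For Nxf1 the nearest of 11553 other genes were Cep85, Fnbp4 and Sppl2b, at 0.10, 0.10 and 0.11, beside a median of 0.66. They encode a centrosomal protein, a formin-binding protein and an intramembrane protease. Ddx39b was at 0.13 (rank 19) and Thoc1 at 0.16 (rank 73) from Nxf1, nearer than Nxt1 at 0.49 or Thoc2 at 0.51. For Thoc2 the nearest were Hmgn3, Reps1 and Yrdc, at 0.05 to 0.08. Thoc5 at 0.14 was the nearest member, but only at rank 381, so many genes outside the pathway lay nearer. These distances contain the difference between the groups and are a description.

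Other genes of nuclear export, listed by function, were tested in the same fit. These lists, too, were chosen with earlier results of these data known. Genes named from them were mostly those with the smallest p, so their adjusted p-values, here and above, are a description. Of 88 symbols in 7 lists, 73 were matched in the count table and 72 were tested. Some unmatched genes, such as Nup50 (Npap60), are there under another symbol and were left out. Of the 72, 16 rose, 23 fell and 33 did not pass, and their median log2 fold change was −0.05. That is 22.2% higher and 31.9% lower, beside 24.3% and 22.8% of all genes. The counts of single lists below are a description beside those shares. Of the 8 other TREX and adaptor genes, 3 rose, 1 fell and 4 did not pass. Zc3h11a, a zinc finger protein that travels with TREX, rose from 53.1 ± 3.82 to 83.8 ± 11.4 CPM (edgeR adjusted p = 3.89e-04) and Ddx39a is described above. Chtop, an adaptor that binds Nxf1, rose from 143 ± 6.32 to 160.4 ± 4.94 CPM (0.0334), a call that was lost in 14 of 21 alternatives, among them the omission of any single rat. In TREX-2, the complex at the nuclear basket, 2 of 5 genes rose and 2 fell. Pcid2 and Shfm1 rose by log2 fold changes of 0.33 and 0.29, Eny2 and Cetn3 fell by 0.37 and 0.31, and the scaffold Mcm3ap was at −0.08 (edgeR adjusted p = 0.310). The call of Cetn3 was lost without ibudilast replicate 2 (−0.27).

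Factors that mark spliced RNA for export moved both ways, as did genes at large. Of 14 exon junction and SR protein genes, 6 were higher, 3 were lower and 5 missed the threshold. These are 42.9% and 21.4%, beside 24.3% higher and 22.8% lower over all genes. Pnn (pinin), which binds the exon junction complex, rose from 50.8 ± 7.06 to 102 ± 2.69 CPM, Acin1 from 117 ± 6.94 to 191 ± 8.06 CPM and Upf3b, which links the junction complex to nonsense-mediated decay, from 28.2 ± 1.96 to 44.2 ± 0.954 CPM. Casc3, a core subunit of the junction complex, fell from 39.9 ± 3.19 to 28.9 ± 1.69 CPM. Among the 5 cap binding and nuclear RNA genes matched, of 10 symbols listed, 2 rose and 1 fell. Pabpn1, the nuclear poly(A) binding protein, rose from 129 ± 24.1 to 285 ± 14.1 CPM (log2 fold change 1.14 ± 0.11, edgeR adjusted p = 4.35e-05), with untreated replicate 3 at 172 CPM. Zcchc8, of the nuclear exosome targeting complex, rose by 0.79 and Skiv2l2, the exosome helicase, fell by 0.37 on the log2 scale.

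At the pore itself and in the other export routes, more genes fell than rose. Of the 25 nuclear pore genes matched, from 30 symbols listed, 8 fell, 1 rose and 16 did not pass. Beside this, 22.8% of all genes were lower, and the median of the list was −0.12. Nup155, an inner ring scaffold, fell from 28.0 ± 3.60 to 14.7 ± 1.24 CPM, Tpr, the basket filament, from 132 ± 10.8 to 89.6 ± 1.97 CPM and Ranbp2, of the cytoplasmic filaments, from 177 ± 27.5 to 101 ± 14.5 CPM. Aaas rose from 16.1 ± 1.03 to 23.2 ± 1.52 CPM. Of 4 genes of release on the cytoplasmic side, Nupl2 and the helicase Ddx19b rose by log2 fold changes of 0.49 and 0.32, and Ddx19a fell by 0.24; scaled by library size alone it was at −0.17 and missed the threshold. Of 11 exportin and Ran cycle genes, 7 (63.6%) fell, 0 rose and 4 did not pass, beside 22.8% of all genes lower. At an unadjusted p, by DESeq2 or by limma-voom, 0 of the 11 were higher. Xpo1, the exportin of proteins and some RNAs, fell from 68.4 ± 4.08 to 53.1 ± 3.16 CPM (edgeR adjusted p = 0.00115), Xpot, the transfer RNA exportin, by 0.77 and Cse1l by 0.56 on the log2 scale, and Xpo7 by 0.51. Whether these lists differ from each other was not tested.

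**Figure D4:**
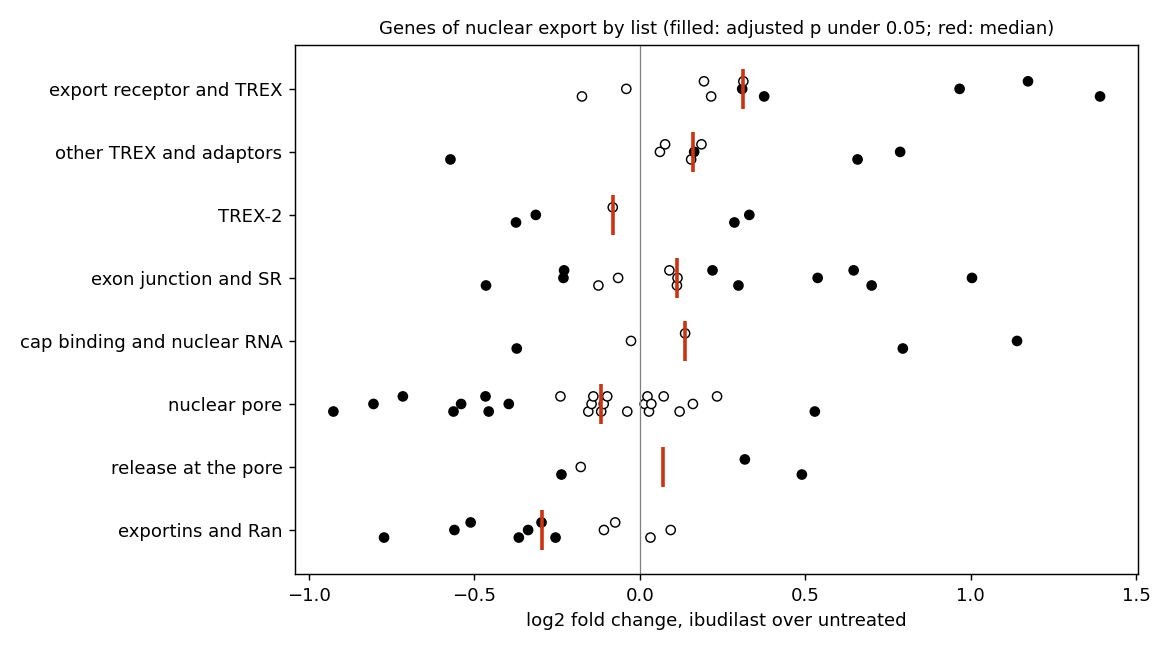
Log2 fold change (ibudilast over untreated, x axis) of each tested gene in the 10 export genes and in 7 further lists (y axis), filled where the adjusted p was under 0.05, with the list median in red. The medians run from −0.30 for exportins and Ran to 0.31 for the receptor and TREX genes, and 3 of the latter lie at 0.97 or above.

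The libraries differed in ways that the groups do not explain. Totals were 14806807 to 18533520 counts. Hippocampal neuron markers such as Slc17a7 and Prox1 were detected in all 10 libraries. Summed choroid plexus markers were at 7819 CPM in untreated replicate 2 and 7187 CPM in ibudilast replicate 1, against 24.6 to 351 CPM in the others. Prox1, the dentate granule cell factor, was at 4.50 CPM in untreated replicate 3 against 30.4 to 51.9 in the other untreated rats. Summed excitatory neuron markers were at 1673 CPM in ibudilast replicate 4 against 4283 to 6225 in the other ibudilast rats. Slc17a6, of that same list, went the other way in ibudilast replicate 4, at 132 CPM. It was at 8.18 to 14.8 CPM in the other ibudilast rats and at 9.32 to 17.5 CPM in untreated rats. Between the groups, 24.3% of all genes were higher and 22.8% lower. Of 11 oligodendrocyte markers 6 rose (sum 7656 to 14936 CPM in untreated, 15639 to 18532 CPM in ibudilast rats), while 5 of 9 microglial, 6 of 9 endothelial and mural and 4 of 7 astrocyte markers fell. Among neuronal lists, 3 of 10 excitatory markers fell and 0 rose, with a median log2 fold change of −0.69, and 2 of 9 hippocampal subfield markers fell and 0 rose. Of 6 oligodendrocyte precursor (OPC) markers 2 fell and 0 rose, and of 8 inhibitory neuron markers 1 rose and 2 fell. In bulk tissue fewer cells of a type and less RNA per cell cannot be told apart, and the part of these shifts in the export genes was not tested. Without those 4 libraries, a choice made after seeing the data, the log2 fold change was 1.22 for Nxf1, 1.06 for Ddx39b and 1.40 for Thoc1, and 6 members were past the threshold as higher, Thoc2 and Thoc5 being added and Thoc6 no longer among them. In that fit 3483 of 12325 genes were higher and 55.6% were called in either direction, with 15 of the pathway genes higher and 24 lower.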

How the data were processed

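Left hippocampal poly(A) RNA of 10 rats, 5 per group, was measured in 1 library per rat, and the titles of the samples give group and number. The authors deposited expected counts per gene symbol, not normalized, and a normalized signal, which the authors obtained by dividing counts by a TMM-scaled library size. The submitters' processing notes name Bowtie2 2.1.0, RSEM 1.2.15, edgeR and rn6, without their roles. Annotation and strand setting: not given in the sources used here. Rounding applied to the 11.95% of expected counts that were not whole; all were rounded before testing. The signal gave whole reads for 100% of values within 0.01, and edgeR on those reads called 5817 genes. No libraries of a group agreed within sampling noise (lowest chi-square per gene 11.6).

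The test was edgeR's quasi-likelihood test (edgeR 4.0.16, limma 3.58.1, R 4.3.3), robust, with filterByExpr and TMM scaling. P-values were adjusted by Benjamini-Hochberg over 12355 genes, threshold 0.05. A check on simulated counts changed only a small part of the genes, evenly up and down. In the data 47.1% of genes were called, so that check does not cover the scaling or the error rate here. SE is the log2 fold change over the root of F, and log2 CPM used a prior count of 2. The members and lists were chosen with earlier results of these data known. Named genes were the members, up to 4 genes of each list by smallest p among those past the threshold, Ddx39a, Nxt2, Chtop, Mcm3ap and Xpo1, and the 3 nearest profiles of Nxf1 and of Thoc2. Of the marker lists, choroid plexus genes had 0 of 6 members past the threshold (also 0 at an unadjusted p and by DESeq2 1.42.0). Alternatives were other scaling factors, count filters, DESeq2, voom, limma-trend (log2 of signal plus 1), a replicate block, summed paralogues, a threshold of 0.01, leaving out each rat, and leaving out 4 libraries. Promoters matched 74.6% of tested genes by symbol.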

Additional observations from a re-analysis of the deposited data

Results flagged for a closer look

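In 92 sets of 5 rats (37 genes and 9 marker lists, each group), 7 had 1 rat far from the others by Dixon's criterion, and chance gives about 1 in 20. Among the members, untreated replicate 3 was low for Thoc3 (26.2 CPM) and high for Ddx39b (182 CPM). The same rat was high for Pabpn1 (172 CPM) and for the summed microglial markers (1078 CPM). Nupl2 was high in ibudilast replicate 3 (17.5 CPM). Summed choroid plexus markers were high in untreated replicate 2 (7819 CPM) and ibudilast replicate 1 (7187 CPM).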

How the results depend on the processing

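Nxf1, Thoc1, Ddx39b and Thoc7 kept their direction and stayed past the threshold in all 21 alternatives, at 1.13 to 1.24, 1.31 to 1.47, 0.93 to 1.06 and 0.28 to 0.45 on the log2 scale. Of the members, 8 were higher with upper-quartile factors (3384 of all genes higher), 7 with library size alone (3410), and 1 (Alyref) was lower with RLE factors, without a count filter, by DESeq2 and by limma-trend on the authors' signal. Leaving out 1 rat gave 5 to 6 members higher and 0 to 1 lower, with the lower call made without untreated replicate 2 or 3, and 14 to 15 pathway genes higher and 19 to 29 lower. With the paralogues Nxt1 and Nxt2 summed, the log2 fold change was -0.0617. At an adjusted p under 0.01, 2058 genes were higher and 1859 lower, and of the members 4 were higher and 0 lower. Replicate numbers are shared by the groups, and the correlations of same-numbered deviations were −0.30, −0.33, −0.24, −0.11 and 0.42. Rats of unlike number were not compared, so these values do not settle whether the numbers pair the rats. With the replicate number as a block, 4726 genes were called (2497 higher), against 5817 without it, and 4 members were higher and 0 lower, Thoc6 no longer being counted at a log2 fold change of 0.31. Of 27 named pathway genes, 24 kept their side of the threshold throughout, with the exceptions of Chtop, Cetn3 and Ddx19a, and 0 reversed. The median SD of the members ran from 0.0853 to 0.141 in untreated and from 0.0848 to 0.134 in ibudilast rats with 1 rat left out. At 104 to 166 counts per library, Nxt1 is the member whose precision depth limits most.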
